A study of Homo sapiens with 8 samples.

Results

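Chemokines, cytokines and a lipocalin that epithelial cells release in inflammation were followed in HCT116, a human colorectal cancer line whose genotype is given as a ras mutation. The 10 genes were chosen by symbol: CXCL1, CXCL2, CXCL3, CXCL8, CCL20, IL11, LIF, IL1A, IL23A and LCN2. All 10 had a row in the count table, out of 35394 rows in all. PZH (Pien Tze Huang), a Chinese medicine formula, was given for 24 h in 4 libraries. The control was 4 libraries of cells with DMSO. The labels state no dose of PZH and no duration for DMSO, so a control matched in time cannot be assumed. Both groups are this 1 line, labelled as epithelial cells of human colon. What separates one replicate from another is not stated, so p-values measure the spread between these libraries, which may be technical.

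Chemokines are small secreted proteins that draw white blood cells along a gradient. CXCL1, CXCL2, CXCL3 and CXCL8 (interleukin 8) act on CXCR2, CXCL8 also on CXCR1, and they recruit neutrophils. CCL20 attracts CCR6-bearing lymphocytes and dendritic cells. IL11 and LIF signal through their own receptor chains and the shared chain gp130, IL1A is released from stressed or dying epithelium as an alarm signal, IL23A is the p19 subunit of interleukin 23, and LCN2 (lipocalin 2) withholds iron from bacteria by binding their siderophores. In gut epithelium many of these genes are known targets of NF-kB and AP-1, and their mRNAs are short-lived.

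PZH-treated cells held more mRNA of 9 of these genes than DMSO cells, and the other one, CCL20, had too few counts to test. CXCL8 was higher by 94.1-fold, IL1A by 67.8-fold, LCN2 by 32.0-fold, CXCL1 by 24.6-fold, CXCL3 by 20.3-fold and CXCL2 by 9.66-fold. The gp130 cytokines moved less: IL11 was higher by 4.84-fold and LIF by 1.67-fold. IL23A was higher by 1.65-fold, a difference that stood close to the spread between libraries. In bulk RNA, a different number of cells making a transcript and a different amount per cell cannot be told apart. Calls rest on the edgeR quasi-likelihood F test over 15006 genes, at a Benjamini-Hochberg adjusted p below 0.05.

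These counts stand against a wide background. Of all genes tested, 80.3% were called, 39.3% higher and 40.9% lower, and 15.8% were higher by at least 2-fold, as were 7 of the 9 tested genes here. A rise of at least 8-fold was rare among all genes, at 1.67%, and 6 of the 9 had one. The libraries of the groups did not overlap for 8 of the 9, all higher with PZH; among all genes tested this held for 36.6% higher and 38.4% lower. The median log2 fold change was 4.35 over the 9 and -0.02 over all genes tested. The filter that admits genes to the test asks for enough counts in 4 libraries, and CXCL1, CXCL2, CXCL3, CXCL8 and IL1A met it through the PZH libraries alone, as 615 of the genes tested did. For CXCL2 and IL1A 0 DMSO libraries reached that level, so their presence in the test already implied a rise. For CXCL8 2 did, and for CXCL1 and CXCL3 3 each, so there the filter favoured a rise without implying one. The counts and the median above are a description. When libraries were not scaled, the median of all genes was -0.28, the split of calls was 4473 higher and 7670 lower, and the log2 fold changes of the 9 were lower by a like amount, with IL23A no longer called.

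CXCL1, CXCL2, CXCL3 and CXCL8 lie within 358.8 kb of each other on chromosome 4 (73740506 to 74099293, GRCh38, GENCODE 29). Because the 4 genes rose together, the bases just before their start sites are shown, from RefSeq (GRCh38.p14), read 5′ to 3′ on the gene's own strand and ending at the base before the start site. Capitals mark a kappaB-like motif spelled GGAANNNCC or an AP-1 motif spelled TGANTCA, searched on both strands. The stretches are chr4:73869243-73869392 on the plus strand for CXCL1, chr4:74099196-74099345 on the minus strand for CXCL2, chr4:74038690-74038839 on the minus strand for CXCL3 and chr4:73740419-73740568 on the plus strand for CXCL8.
CXCL1: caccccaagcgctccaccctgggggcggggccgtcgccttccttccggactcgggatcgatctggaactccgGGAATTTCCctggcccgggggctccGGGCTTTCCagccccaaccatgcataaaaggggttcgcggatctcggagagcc
CXCL2: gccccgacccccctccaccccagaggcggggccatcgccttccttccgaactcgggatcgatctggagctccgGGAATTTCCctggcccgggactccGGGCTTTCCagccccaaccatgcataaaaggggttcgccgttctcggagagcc
CXCL3: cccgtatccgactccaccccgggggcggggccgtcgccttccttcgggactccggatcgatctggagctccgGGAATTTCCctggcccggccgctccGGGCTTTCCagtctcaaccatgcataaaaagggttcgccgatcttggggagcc
CXCL8: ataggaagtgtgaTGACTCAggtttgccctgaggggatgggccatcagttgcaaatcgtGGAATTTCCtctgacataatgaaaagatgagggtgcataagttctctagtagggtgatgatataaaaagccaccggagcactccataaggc

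CXCL1, CXCL2 and CXCL3 carry the same kappaB-like match, GGAATTTCC, starting 78, 77 and 78 bases before the start site, and a second match on the opposite strand, GGAAAGCCC, 53 bases before it. CXCL8 has GGAATTTCC 91 bases before its start and an AP-1 match, TGACTCA, 137 bases before it. Over 250 bases, CXCL1 and CXCL3 were 81.4% identical, CXCL2 and CXCL3 73.3%, and CXCL1 and CXCL2 70.4%, whereas CXCL8 and CXCL1 shared 42.6% of aligned columns.

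For the 5 other genes with a promoter in the table, the stretches below show where the same motifs stand. They are chr2:227813692-227813841 for CCL20, chr12:56338734-56338883 for IL23A and chr9:128149253-128149452 for LCN2, all on the plus strand, and chr19:55370464-55370613 for IL11 and chr2:112784494-112784643 for IL1A, both on the minus strand.
CCL20: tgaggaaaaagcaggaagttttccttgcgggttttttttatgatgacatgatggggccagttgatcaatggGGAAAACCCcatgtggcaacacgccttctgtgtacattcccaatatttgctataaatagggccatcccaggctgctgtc
IL11: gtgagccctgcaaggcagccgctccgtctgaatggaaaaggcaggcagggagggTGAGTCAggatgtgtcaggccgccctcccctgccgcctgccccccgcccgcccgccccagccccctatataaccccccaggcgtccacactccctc
IL1A: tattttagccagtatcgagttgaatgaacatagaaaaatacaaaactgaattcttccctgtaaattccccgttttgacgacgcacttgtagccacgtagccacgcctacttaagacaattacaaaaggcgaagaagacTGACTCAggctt
IL23A: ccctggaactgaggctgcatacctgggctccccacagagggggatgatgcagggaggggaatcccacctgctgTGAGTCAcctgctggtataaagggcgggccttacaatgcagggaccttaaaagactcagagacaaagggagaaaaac
LCN2: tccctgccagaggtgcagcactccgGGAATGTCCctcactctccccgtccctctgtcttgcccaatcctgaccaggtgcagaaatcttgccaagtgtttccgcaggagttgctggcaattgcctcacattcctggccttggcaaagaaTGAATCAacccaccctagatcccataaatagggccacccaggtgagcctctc

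CCL20 and LCN2 held a kappaB-like match, and IL11, IL1A, IL23A and LCN2 an AP-1 match. Within 250 bases before the start site, 6 of 9 genes had GGAANNNCC, which 17.1% of 35116 promoters had. TGANTCA was found in 5 of 9, against 6.57%. The NF-kB consensus GGGRNNYYCC (R is A or G, Y is C or T, N any base) was found in 6 of 9, against 9.96%. It can overlap the first motif, but the genes with each differ. CXCL8 had GGAANNNCC and not the consensus. IL23A had the consensus, GGGGAATCCC, 95 bases before its start site, and not GGAANNNCC. Capitals do not mark the consensus. The promoters of CXCL1, CXCL2 and CXCL3 are alike, so their matches are not separate instances. Many of these genes were also known targets of NF-kB and AP-1 before they were chosen. A match of letters is a description of these windows and is no evidence that a factor bound there. The table has 2 start sites for IL1A, and the upstream one is shown. GENCODE 29 starts CXCL2, CXCL3, CXCL8, CCL20, IL1A, IL23A and LCN2 further upstream than RefSeq does, so those stretches lie wholly or partly inside the gene as GENCODE draws it.

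The 4 PZH libraries, replicates 1 to 4 in turn here and in what follows, held CXCL8 at 45.8, 51.3, 55.2 and 48.3 CPM, against 0.501, 0.473, 0.232 and 0.907 CPM in the DMSO libraries. CPM here are counts set relative to library size after scaling by the trimmed mean of M values (TMM). Every PZH library was far above every DMSO library. The log2 fold change was 6.56 ± 0.15 (standard error, edgeR adjusted p = 1.46e-20), from 3393 counts in the 4 PZH libraries and 45 in the 4 DMSO libraries. Only 0.140% of the genes tested had a larger log2 fold change.

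CXCL1 stood at 7.91, 12.9, 9.41 and 11.8 CPM with PZH, against 0.501, 0.520, 0.511 and 0.143 CPM with DMSO. CXCL3 stood at 9.89, 15.5, 11.2 and 13.4 CPM with PZH, against 0.684, 0.236, 0.837 and 0.668 CPM with DMSO. CXCL2 stood at 1.41, 3.07, 1.93 and 2.42 CPM with PZH, against 0.0912, 0.284, 0.139 and 0.382 CPM with DMSO. In none of the 3 did the groups overlap, and all 3 encode ligands of CXCR2. The log2 fold changes were 4.62 ± 0.25 for CXCL1, 4.35 ± 0.22 for CXCL3 and 3.27 ± 0.39 for CXCL2 (edgeR adjusted p = 5.78e-14, 3.18e-14 and 7.05e-08). DMSO values rest on few molecules, with 36 counts of CXCL1, 52 of CXCL3 and 19 of CXCL2 over 4 libraries.

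The trio had the same order over the PZH libraries: replicate 2 was the highest, then 4, then 3, and replicate 1 the lowest. IL11 had this order too, and CXCL8 did not. Their spread among PZH libraries exceeded counting error: the coefficient of variation was 21.6% for CXCL1, 19.6% for CXCL3 and 32.0% for CXCL2, where counting alone gives 7.51%, 6.88% and 16.4%. The log2 ratio of CXCL3 to CXCL1 was 0.25 ± 0.06 over the 4 PZH libraries (SD). PZH replicates 2 and 4 both stood above 1 and 3 in 4 of the 9 tested genes of the group (CXCL1, CXCL2, CXCL3 and IL11) and in 18.7% of all genes tested. The reverse, 2 and 4 both below 1 and 3, held for IL1A and IL23A and for 19.2% of all genes tested. The pattern was read from the trio and then counted with it, so this count is a description only. The 3 transcripts are also alike in part: of the 50-base words in GENCODE 29 transcripts, 12.5% of those of CXCL2, 6.01% of CXCL3 and 4.81% of CXCL1 recur in another of the trio, and none of CXCL8. No source used here says how the counting placed such reads, so single values of the trio, CXCL2 most of all, are uncertain to that extent.

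**Figure D1:**
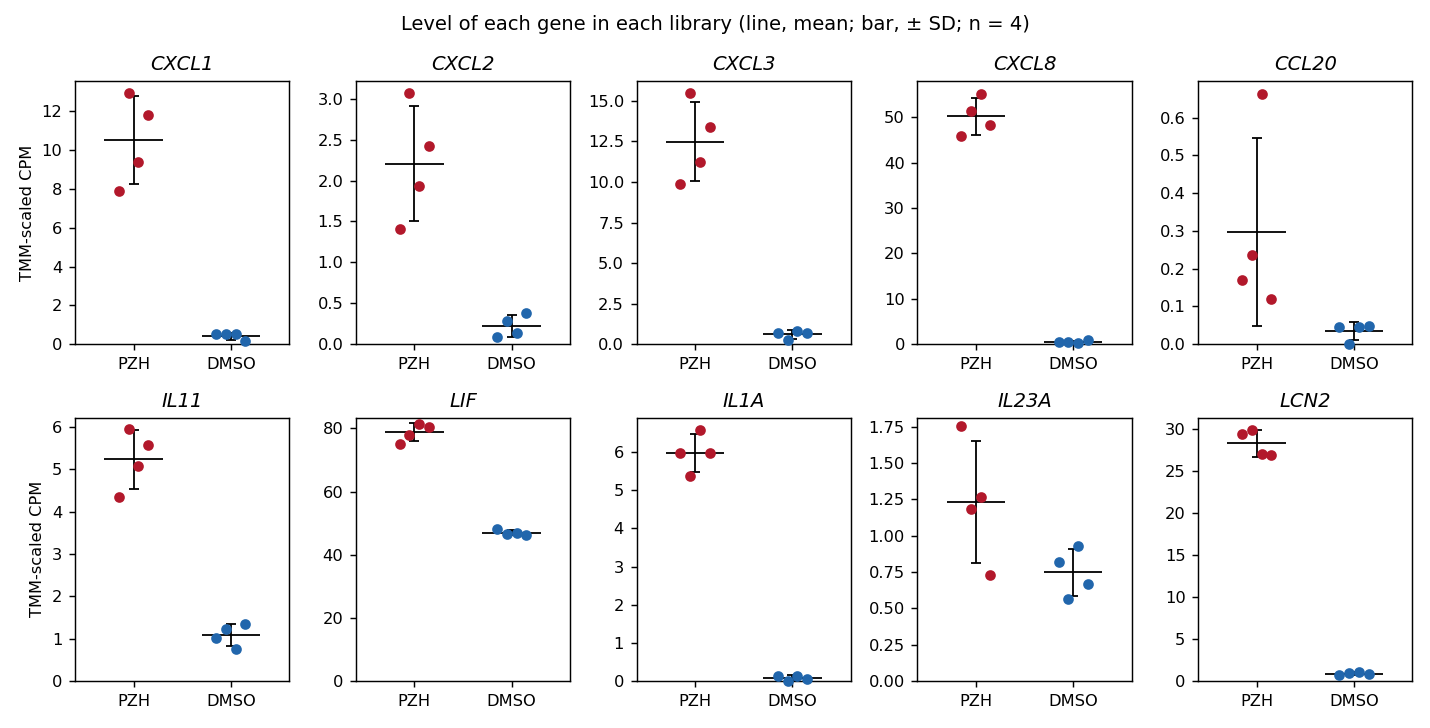
TMM-scaled CPM (vertical axes, each from 0 and each on its own scale) of the 10 genes, with 1 point per library, PZH in red and DMSO in blue, a line at the mean and a bar of ± SD (n = 4 each). The groups overlap for IL23A only, and PZH replicate 3 is the highest for CCL20.

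The share of each gene in the summed counts of the 4 neutrophil chemokines shows their make-up in each library. CXCL8 gave 66.8% ± 4.62 of their summed counts in PZH libraries and 29% ± 12.2 in DMSO libraries (SD, n = 4 each). CXCL3 gave 16.5 ± 2.0% with PZH and 33.6 ± 13.9% with DMSO, CXCL1 13.9 ± 1.99% and 24.8 ± 12.3%, and CXCL2 2.89 ± 0.693% and 12.5 ± 6.95%. CXCL8 took the largest share in every PZH library, while in DMSO libraries the leading gene varied. Summed over libraries, the CXCL8 share was 66.6% of 5096 counts with PZH (exact 95% interval 65.3% to 67.9%) and 29.6% of 152 counts with DMSO (22.5% to 37.5%), intervals that cover counting error only.

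A ratio of 2 genes within a library needs no scaling factor. The log2 ratio of CXCL8 to CXCL2 was 4.54 ± 0.44 with PZH and 1.19 ± 0.72 with DMSO, a difference of 3.35 ± 0.42 (standard error). The ratio of CXCL8 to CXCL3 was 2.02 ± 0.27 with PZH and -0.21 ± 1.17 with DMSO, a difference of 2.23 ± 0.60. In both, the groups did not overlap, and the exact two-sided permutation p was 0.0286, the smallest that 70 assignments allow, or 0.0667 after adjustment over 7 ratios, so neither passed. Even at that smallest p, no ratio could pass after adjustment unless several others reached it too. CXCL8 over CXCL1 differed by 1.95 ± 0.77 (exact p = 0.0857, adjusted p = 0.12), with overlap through DMSO replicate 4, the library with 3 counts of CXCL1. Among CXCL1, CXCL2 and CXCL3 the ratios did not pass either: CXCL2 over CXCL1 differed by -1.40 ± 0.77 (exact p = 0.0571, adjusted p = 0.1), CXCL3 over CXCL2 by 1.13 ± 0.69 (exact p = 0.229, adjusted p = 0.267) and CXCL3 over CXCL1 by -0.27 ± 0.64 (exact p = 0.6, also after adjustment).

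**Figure D2:**
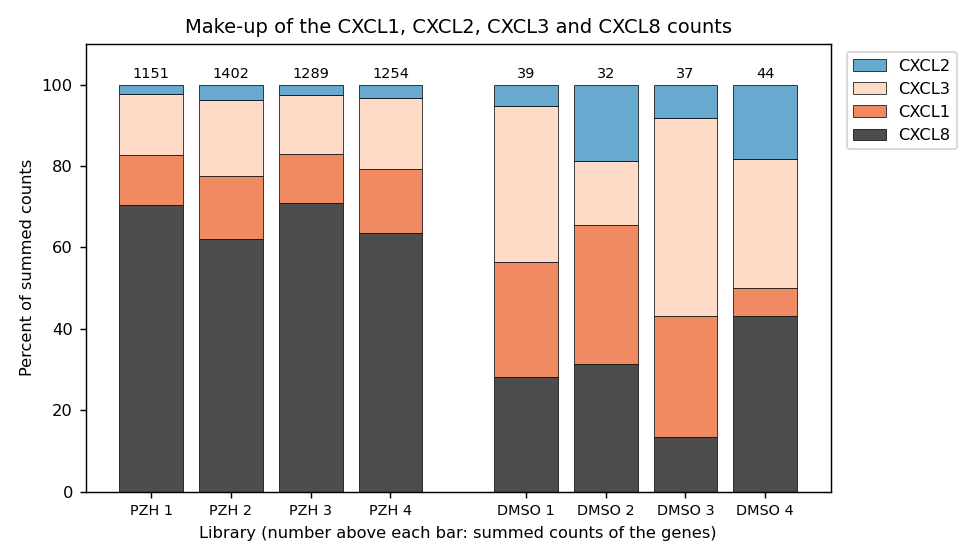
Percent of the summed counts of CXCL1, CXCL2, CXCL3 and CXCL8 (vertical axis) that each gene gave in each library, with the summed count of each library above its bar. CXCL8 averages 66.8% in the 4 PZH libraries, against 29% in the 4 DMSO libraries, whose bars rest on 32 to 44 counts.

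CCL20, the only CC chemokine of the group, was too low to test. It had 3, 4, 11 and 2 counts in PZH replicates 1 to 4, against 1, 0, 1 and 1 in DMSO replicates 1 to 4. PZH replicate 3 gave 11 of the 20 PZH counts, and no PZH library overlapped the DMSO libraries. The ratio of summed counts per unit depth was 8.42, with an exact 95% interval of 2.50 to 44.2 that covers counting error only. With no filter on low counts, edgeR gave an adjusted p of 0.00875 for CCL20, and DESeq2 gave 0.0173, both on these 23 counts.

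IL1A had 106, 91, 109 and 99 counts in PZH replicates 1 to 4, against 3, 0, 3 and 1 counts in DMSO replicates 1 to 4. This is 5.98 ± 0.493 CPM with PZH and 0.0810 ± 0.0688 CPM with DMSO (SD, n = 4 each). IL1A spans bases 112773915 to 112784590 of chromosome 2 (minus strand, GENCODE 29). The groups did not overlap, and the PZH libraries differed by no more than counting error gives (coefficient of variation 8.24%, against 9.94%). The log2 fold change was 6.08 ± 0.33 (edgeR adjusted p = 9.47e-14), and the ratio of summed counts was 73.1 with an exact 95% interval of 35.1 to 183. IL1B, the secreted relative of IL1A that needs an inflammasome, had 3 counts over the PZH libraries and 0 over the DMSO libraries.

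IL11, a cytokine of epithelial repair and fibrosis, stood at 4.35, 5.96, 5.07 and 5.57 CPM with PZH, against 1.00, 1.23, 0.744 and 1.34 CPM with DMSO. The groups did not overlap, with a log2 fold change of 2.27 ± 0.21 (edgeR adjusted p = 1.18e-09). LIF, a relative that binds LIFR, was already abundant in control cells: it stood at 75.0, 78.1, 81.4 and 80.6 CPM with PZH, against 48.2, 46.5, 47.0 and 46.3 CPM with DMSO. IL11 spans bases 55364389 to 55370463 of chromosome 19 and LIF bases 30240447 to 30246851 of chromosome 22 (both minus strand, GENCODE 29). The change of LIF was small and even, with a log2 fold change of 0.74 ± 0.05 (edgeR adjusted p = 2.79e-12). The log2 ratio of IL11 to LIF within a library was -3.91 ± 0.17 with PZH and -5.45 ± 0.38 with DMSO, a difference of 1.54 ± 0.21 with no overlap (exact two-sided permutation p = 0.0286, adjusted p = 0.0667). Antisense transcripts overlap 2.32% and 4.41% of the LIF exons, and had 3 and 18 counts over the PZH libraries and 19 and 15 over the DMSO libraries, against 5331 and 4023 of LIF.

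IL23A stood at 1.75, 1.18, 1.27 and 0.726 CPM with PZH, against 0.820, 0.567, 0.930 and 0.668 CPM with DMSO. The groups overlapped: PZH replicate 4 lay below DMSO replicates 1 and 3. The log2 fold change was 0.72 ± 0.32 (edgeR adjusted p = 0.0429), and 22.5% of the genes tested had a larger one. The call was lost on leaving out PZH replicate 1, 2 or 3 or DMSO replicate 1, 2 or 4 (adjusted p = 0.0561 to 0.174), and with DESeq2, limma-voom, no scaling factors, upper quartile factors, no filter or the replicate number as a block. IL12B, the p40 partner without which p19 is not secreted as interleukin 23, had 2 counts with PZH and 7 with DMSO.

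LCN2 stood at 29.4, 29.9, 27.0 and 26.9 CPM with PZH, against 0.684, 0.993, 1.02 and 0.811 CPM with DMSO. LCN2 spans bases 128149071 to 128153455 of chromosome 9 (plus strand, GENCODE 29). No library came near the other group, and the PZH libraries differed by about as much as counting gives (coefficient of variation 5.62%, against 4.57%). The log2 fold change was 5.0 ± 0.13 (edgeR adjusted p = 1.19e-19). Of 18 other lipocalin genes only 2 had enough counts to test: APOD was higher at 0.842 ± 0.155 CPM with PZH and 0.329 ± 0.206 CPM with DMSO (edgeR adjusted p = 0.00508), and APOM did not pass (0.795 ± 0.131 and 0.922 ± 0.168 CPM). MMP9, a protease that forms a complex with LCN2 in neutrophils, had 12 counts with PZH and 10 with DMSO.

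**Figure D3:**
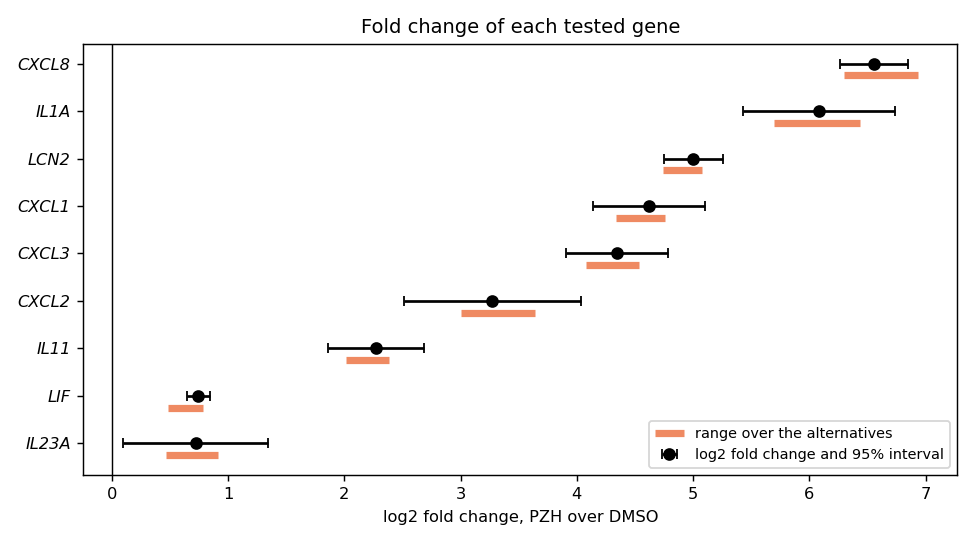
Log2 fold change, PZH over DMSO, of the 9 tested genes (points, with bars of the 95% interval) and, in orange, its range over the alternative settings. CXCL8 is at 6.56 and IL23A at 0.72, and all ranges lie above 0.

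Per kilobase of merged GENCODE 29 exons, the order of levels also changed. With PZH, CXCL8 led at 22.1 ± 1.77 CPM per kb, followed by LIF at 19.8 ± 0.724, LCN2 at 17.7 ± 0.995, CXCL1 at 8.11 ± 1.75 and CXCL3 at 5.63 ± 1.10 (SD, n = 4). Below these came IL1A at 2.82 ± 0.232, IL11 at 1.96 ± 0.259, CXCL2 at 1.47 ± 0.470, IL23A at 1.04 ± 0.354 and CCL20 at 0.187 ± 0.156. The libraries of CXCL8 and LIF overlapped, as did those of CXCL1 and CXCL3, of IL11 and CXCL2, and of CXCL2 and IL23A, while the other neighbours in this order did not. The merged exons of CXCL3 form 1 block of 2219 bases that covers the whole gene, introns included, so its level per kb may be too low. Without division by length, CXCL3 stood at 12.5 CPM and CXCL1 at 10.5 CPM with PZH, so their order depends on the lengths used. With DMSO, LIF stood alone at 11.8 ± 0.209 CPM per kb. The next was IL23A at 0.629 ± 0.135, then LCN2 at 0.549 ± 0.0998 and IL11 at 0.404 ± 0.0983, and the neutrophil chemokines lay between 0.149 and 0.323; from IL23A down to CCL20 each neighbouring pair overlapped.

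The genes with the closest course over the 8 libraries were found by the root mean square difference of log2(CPM + 0.05). Each gene was set relative to its own DMSO mean. Candidates were the 11284 genes outside the group whose average log2 CPM reached 2. With this centring the distance mostly picks genes with a fold change of like size, so nearness is no evidence of shared control. For CXCL8 the closest were DDIT3, which encodes the stress factor CHOP, and BEST1 (0.34 and 0.42 log2 units). For LCN2 they were SESN2 and PPP1R15A (0.21 and 0.25), a stress sensor and a phosphatase subunit, and for CXCL3 SRXN1 and EGR1 (0.36 and 0.38). For CXCL2 they were BIRC3 and IRF7 (0.43 and 0.45), for CXCL1 AC012181.2 and ASNS (0.25 and 0.43), and for IL1A LUCAT1 and LURAP1L (0.45 and 0.50). IL11 was nearest to ZC3H12A (0.17), an endonuclease that degrades inflammatory mRNAs, and to CDK5RAP3 (0.19), IL23A to CRYBB2P1 and LINC01270 (0.22 each), and LIF to CANT1 and MAPKAPK2 (0.02 and 0.03).

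Most other cytokines and chemokines had too few counts to test. Of 33 other chemokine genes, CXCL16 alone had enough counts to test; it was called higher by 1.16-fold (56.6 ± 5.24 CPM with PZH and 48.6 ± 0.633 CPM with DMSO, edgeR adjusted p = 0.00221), a call lost when libraries were not scaled, where its log2 fold change was -0.04. CXCL10 had 4 counts with PZH and 3 with DMSO, CCL2 had 3 and 0, and CXCL5 had none in any library. Of 39 other cytokines 10 were tested, of which 7 were higher and 2 lower, and unscaled libraries gave 6 and 2. The shares among all genes tested were 39.3% higher and 40.9% lower. TSLP, an epithelial alarm cytokine of allergic inflammation, was higher by 62.5-fold at 19.4 ± 2.84 CPM with PZH and 0.304 ± 0.11 CPM with DMSO (log2 fold change 5.96 ± 0.20, edgeR adjusted p = 1.00e-17). IL12A, the p35 subunit of interleukin 12, and CLCF1, another gp130 cytokine, were higher by 5.86-fold and 4.25-fold (16.4 ± 1.17 CPM with PZH and 3.84 ± 0.438 CPM with DMSO for CLCF1). IL6 and CSF3 had no count in any library, TNF had 1 count with PZH and 0 with DMSO, and CSF2, too low to test, had 64 and 5 (ratio 16.2, exact 95% interval 6.58 to 51.5). That interval covers counting error only. CSF2 had 3, 22, 14 and 25 counts in the PZH libraries, against 1, 0, 0 and 4 in the DMSO libraries. The groups overlapped, with PZH replicate 1 at 0.170 CPM and DMSO replicate 4 at 0.191 CPM.

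Receptors for the secreted factors were measured in the same cells. Of 15 genes 6 were tested, with 4 higher and 1 lower, and unscaled libraries gave 2 and 1. Of all genes tested, 39.3% were called higher and 40.9% lower, so most genes of any list would be called. The interleukin 1 receptor chains IL1R1 and IL1RAP were higher by 2.61-fold and 3.54-fold (38.3 ± 0.895 CPM with PZH and 14.7 ± 0.615 CPM with DMSO for IL1R1). LIFR and the gp130 gene IL6ST were higher by 1.31-fold and 1.23-fold, calls that were lost when libraries were not scaled. IL11RA was lower by 2.28-fold, at 0.990 ± 0.294 CPM with PZH and 2.27 ± 0.0890 CPM with DMSO (edgeR adjusted p = 1.84e-04). The LCN2 receptor SLC22A17 did not pass (3.39 ± 1.02 CPM with PZH and 3.50 ± 0.404 CPM with DMSO). Chemokine receptors were close to absent, with 8 counts of CXCR1, 5 of CXCR2 and 0 of CCR6 over the PZH libraries, and 6, 7 and 1 over the DMSO libraries.

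Genes of NF-kB signalling and transcription factors known to act on these genes were read against the shares of all genes tested. These were 39.3% called higher and 40.9% called lower. The lists, like the others here, were chosen with earlier results of these data known, so their counts are a description only. Of 24 NF-kB subunits, inhibitors and feedback genes 23 were tested, and 18 were higher and 1 lower, against 16 and 2 in unscaled libraries; their median log2 fold change was 0.69. RELB and NFKB2 were higher by 8.30-fold and 3.04-fold, the ubiquitin ligase BIRC2 by 2.89-fold and NFKBIZ, a cofactor at the LCN2 promoter, by 6.28-fold (25.9 ± 1.15 CPM with PZH and 4.11 ± 0.437 CPM with DMSO). The 1 lower gene was ICAM1, an adhesion molecule and a known NF-kB target, at 2.67 ± 0.503 CPM with PZH and 4.39 ± 0.773 CPM with DMSO (edgeR adjusted p = 0.00144); it is named here after its value was seen. Of 20 transcription factors 18 were higher and 1 lower, against 17 and 2 in unscaled libraries, with a median of 2.29. The bZIP factors DDIT3, ATF3, JUN and CEBPG were higher by 88.9-fold, 71.0-fold, 37.2-fold and 4.72-fold.

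Genes of mRNA decay went both ways, with 9 of 18 higher and 7 lower, but 7 and 9 in unscaled libraries, where the median of 0.18 became -0.08. ZFP36 (tristetraprolin), which binds AU-rich elements and speeds the decay of cytokine mRNAs, was higher by 10.8-fold, at 322 ± 50.2 CPM with PZH and 29.7 ± 2.12 CPM with DMSO. HNRNPD, KHSRP and ZFP36L2, which also bind such elements, were lower by 3.59-fold, 2.11-fold and 2.47-fold. Genes of interleukin 1, tumour necrosis factor and innate receptor signalling were 9 higher and 7 lower of 21 tested, but 7 and 10 in unscaled libraries, where the median of 0.03 became -0.23. Beside the mRNA decay list and this one, all genes tested were 39.3% higher and 40.9% lower. TNFRSF1A, RIPK2, IRAK2 and TAB3 were higher by 2.29-fold, 2.15-fold, 4.94-fold and 2.07-fold. Among the lower genes, named after their values were seen, MYD88, the adaptor shared by interleukin 1 and Toll-like receptors, was lower by 1.98-fold at 13.2 ± 1.22 CPM with PZH and 26.2 ± 1.06 CPM with DMSO (edgeR adjusted p = 1.80e-10). The receptors TLR3 and TLR5 were lower by 5.96-fold and 4.32-fold, and TAB1 by 1.99-fold.

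Among 24 genes of epithelial defence and inflammation 5 were tested, of which 3 were higher and none lower, and unscaled libraries gave 3 and 1. Over all genes tested the shares were 39.3% higher and 40.9% lower. The protease inhibitor SLPI was higher by 16.7-fold, the prostaglandin synthase PTGS2 (cyclooxygenase 2) by 12.7-fold and the urokinase receptor PLAUR by 5.95-fold. SLPI stood at 8.37, 12.6, 6.33 and 7.44 CPM with PZH, against 0.638, 0.331, 0.744 and 0.334 CPM with DMSO. The calprotectin genes S100A8 and S100A9, abundant in neutrophils, were too low to test. S100A8 had 0, 8, 15 and 7 counts in PZH replicates 1 to 4, against 4, 0, 0 and 0 in DMSO replicates 1 to 4. S100A9 had 0, 23, 22 and 12 counts with PZH, against 9, 0, 0 and 0 with DMSO. Both were thus at 0 in PZH replicate 1, and DMSO replicate 1 held all of the DMSO counts.

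**Figure D4:**
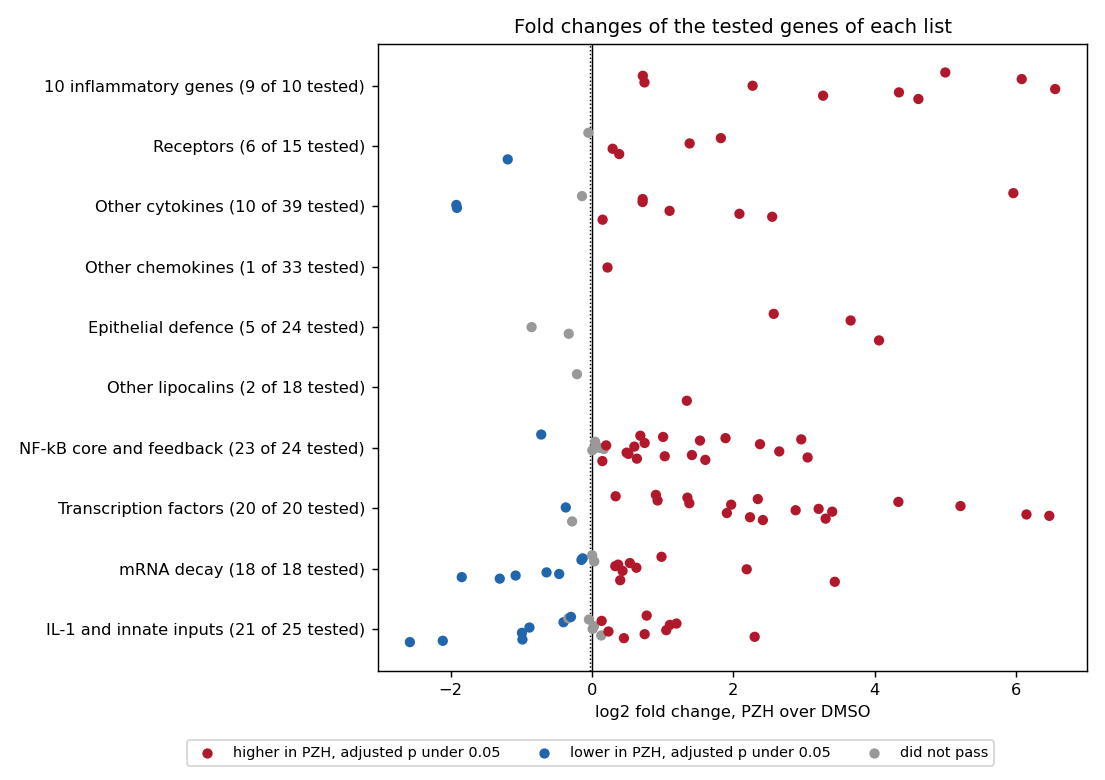
Log2 fold change, PZH over DMSO (horizontal axis), of every tested gene of each list, with 1 point per gene, red where higher, blue where lower and grey where the test was not passed; the dotted line is the median of all genes tested, at -0.02. The 9 tested inflammatory genes reach 6.56, and the mRNA decay and innate input lists spread to both sides.

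The epithelial markers EPCAM, KRT8, KRT18, KRT19, CDH1, CLDN3 and CLDN4 were all expressed, with EPCAM at 299 ± 10.2 CPM with PZH and 277 ± 10.1 CPM with DMSO and KRT18 at 589 ± 43.2 and 618 ± 10.8 CPM, while the enterocyte genes VIL1, CDH17 and GPA33 were too low to test. KRT8 was lower by 1.91-fold with PZH and CDH1 higher by 3.12-fold. Markers of white blood cells, which make the same chemokines, summed to 1.75 to 3.57 CPM over 10 myeloid genes in PZH libraries and 0.716 to 2.64 CPM in DMSO libraries. The 9 lymphoid genes summed to 1.24 to 2.36 CPM with PZH and 1.70 to 2.51 CPM with DMSO. The myeloid genes MPO and CD68, too low to test, did not overlap between the groups: MPO had 15, 6, 14 and 27 counts with PZH, against 0, 1, 0 and 0 with DMSO, and CD68 had 9, 9, 4 and 2 counts with PZH, against 0, 0, 1 and 0 with DMSO. Among all genes tested, 36.6% were higher with PZH without overlap. PTPRC (CD45) had 1, 17, 17 and 17 counts with PZH, against 20, 0, 0 and 0 with DMSO, and did not pass (edgeR adjusted p = 0.0544). FCGR3A and the lysozyme gene LYZ also had most of their DMSO counts in DMSO replicate 1, 13 of 13 and 39 of 43, and both had 0 counts in PZH replicate 1. CD14 was at 0.0893 CPM with PZH and 0.118 CPM with DMSO, and ELANE had no count. The T-cell receptor gene TRAC had 8 counts with PZH and 0 with DMSO. CD8A was called lower, at 0.713 ± 0.225 CPM with PZH and 1.21 ± 0.218 CPM with DMSO (edgeR adjusted p = 0.0298). This call was lost with DESeq2 (adjusted p = 0.0934). Of 6 endothelial genes none was tested. The 7 fibroblast genes summed to 19.5 to 23.3 CPM with PZH and 10.7 to 13.0 CPM with DMSO, nearly all of it COL1A1. Both fibroblast genes tested were called higher: COL1A1 by 1.77-fold (edgeR adjusted p = 3.08e-08) and PDGFRB by 2.64-fold (edgeR adjusted p = 0.00272), at 0.815 ± 0.229 CPM with PZH and 0.303 ± 0.108 CPM with DMSO. Of all genes tested, 39.3% were called higher and 40.9% lower. COL1A2 had 0 counts, COL3A1 had 12 with PZH and 7 with DMSO, and DCN and LUM had 1 each with PZH and 0 with DMSO; the part of other cell types in these results was not tested. Total counts were 18144117 to 18868057 in PZH libraries and 19288836 to 19917571 in DMSO libraries, and 3 counts, the smallest sum read as detection here, correspond to 0.170 to 0.181 CPM with PZH and 0.137 to 0.143 CPM with DMSO.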

How the data were processed

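Poly(A) RNA of 8 HCT116 libraries was sequenced, 4 with PZH and 4 with DMSO. The authors deposited 1 table of raw counts per gene symbol, without normalization. The submitters' processing notes list HISAT2 2.1.0, FastQC 0.11.5, DESeq 1.28.0 and StringTie 1.3.3b with no role. Neither the reference build nor strand use is stated in the sources used here. No table column (0) was without a sample. Total counts were 18144117 to 19917571 a library.

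In R 4.3.3, genes passed filterByExpr (minimum count 10, minimum total count 15) of edgeR 4.0.16, TMM factors were applied, and group was the single term in glmQLFit and glmQLFTest, two-sided, with Benjamini-Hochberg adjustment over 15006 genes at 0.05. The size of a log2 fold change over the root of its F value was taken as the standard error. The edgeR steps were tried on simulated counts in which few genes changed, up and down alike. That does not test the scaling of data in which most genes change. Ratios within a library used counts plus 0.5. Promoters and figures were handled in Python 3.11.15.

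The genes and the lists were chosen with earlier results of these data known. The text names all 10 genes, from each list up to 4 called genes with the smallest p, receptors at 1 CPM or more, the 2 genes of closest course, and markers at 1 CPM or more, except a gene that is not reported here; other genes, mostly low ones given as counts, were named after their values were seen, and the 0.05 CPM added in the course measure was set after first results. Intervals cover counting error only, except those of fold changes. Alternatives tried were RLE, upper quartile or no factors, no filter, at least 1 CPM in 4 libraries, robust fitting, limma-voom (limma 3.58.1), DESeq2 1.42.0, a replicate block, a 0.01 threshold, and each library left out in turn.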

Additional observations from a re-analysis of the deposited data

Results flagged for a closer look

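In 20 groups of 4 libraries (10 genes, 2 groups each), 2 values stood far from the others of their group by Dixon's criterion; chance gives about 5% of groups. CXCL1 in DMSO replicate 4 was at 0.143 CPM, or 3 counts, with 11 counts in each of the other DMSO libraries. CCL20 in DMSO replicate 2 was at 0 counts, with 1 count in each of the other DMSO libraries. At such low whole counts a step of 1 count is enough for a flag, so the 5% does not hold there. Without DMSO replicate 4 the log2 fold change of CXCL1 was 4.34.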

How the results depend on the processing

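Over 18 alternatives, 8 or 9 of the genes were called higher and 0 lower. With no filter and with DESeq2 the 9 include CCL20 in place of IL23A. CXCL1, CXCL2, CXCL3, CXCL8, IL11, LIF, IL1A and LCN2 stayed called in all 17 alternatives run for each. Their folds ran, for example, from 78.7 to 122 for CXCL8, from 51.8 to 86.3 for IL1A and down to 1.40 for LIF without scaling factors. IL23A lost its call with upper quartile factors (log2 fold change 0.65, adjusted p = 0.0670), no scaling factors (0.47, 0.189), no filter (0.71, 0.0845), DESeq2 (0.74, 0.102), limma-voom (0.68, 0.0590) and the replicate block (0.70, 0.0617); on leaving out single libraries its value ran from 0.52 to 0.91 (adjusted p = 0.0141 to 0.174), and it stayed called without DMSO replicate 3 or PZH replicate 4. The cause was not tested. Genes called higher numbered 4473 to 6713 and lower 5661 to 7670.

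The replicate numbers did not pair the libraries: deviations of same-numbered libraries correlated at -0.0061 to 0.0097, 1 of the 4 PZH libraries correlated best with its own number, and the block gave 5889 genes higher and 6125 lower. None of the 7 within-library ratios passed under any of its 9 alternatives, with adjusted p from 0.05 up. With so few libraries, even a ratio whose groups did not overlap could not pass alone after adjustment. Not passing is thus no evidence that a ratio was unchanged. CXCL3 over CXCL1 ran from -0.80 to 0.24. In DMSO, CXCL1, CXCL2, CXCL3, CXCL8, CCL20 and IL1A had 0 to 19 counts a library, which limits how exactly their folds are known.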
